A study of Mus musculus with 12 samples.

Results

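The 84 genes described here are the cytosolic ribosomal protein genes of the mouse heart, chosen by symbol and a minimum mean count from 21705 genes. Their symbols are Rpl or Rps followed by a digit, or Rpsa, Rplp0, Rplp1 or Rplp2. Of 98 symbols that matched, 10 kinases whose symbols begin with Rps6k, 2 pseudogenes (Rps19-ps3 and Rpl34-ps1) and 2 genes with a mean expected count under 10 were left out. The 2 genes below that minimum were Rpl39l, with a mean of 1.33, and Rpl10l, listed at 0 in all libraries. Just above it were Rpl34 (24.3), Rps4y2 (65.4) and Rps19bp1 (117). Of the 84, 77 encode standard ribosomal proteins, 31 of the small (40S) and 46 of the large (60S) subunit. Another 5 are paralogs (Rpl3l, Rpl22l1, Rps27l, Rpl36al and Rps4y2). The remaining 2 match the symbol pattern without being ribosomal proteins. Rpl7l1 is a factor of ribosome assembly, and Rps19bp1 encodes a nucleolar protein that binds Rps19. Fau, which encodes the ribosomal protein S30 fused to a ubiquitin-like sequence, carries another symbol and is given with the related genes.

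Heart RNA was sequenced from female mice of the FVB strain in 12 libraries, 3 in each of 4 groups. Control mice received water. The treated mice received 1 of 3 kinase inhibitors for 14 days. Sunitinib, a blocker of the receptors for VEGF, PDGF and stem cell factor, was given at 40 mg/kg/day. The dose of sorafenib, which blocks RAF kinases and several of the same receptors, was 30 mg/kg/day, and that of erlotinib, which blocks the EGF receptor, was 50 mg/kg/day. The study's title places the comparison in the setting of cardiotoxicity. The doses differ, so a difference between drugs is a difference between these treatments. The labels give no age and do not say outright that each library is a separate animal, so a p-value here reflects the spread among libraries, which may be partly technical.

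Each cytosolic ribosome carries 1 copy of nearly every ribosomal protein, so cells make these proteins in matched amounts. Most of their mRNAs begin with a pyrimidine tract, the TOP motif, through which mTORC1 and its effector Larp1 control their translation, and Larp1 binding also stabilises them. Heart muscle also carries Rpl3l, a paralog of Rpl3 expressed in striated muscle.

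The starts of several members are printed because the TOP motif, where a gene has it, lies there. Of the 84 members, 63 matched a promoter in RefSeq (GRCm38.p6). Each window below covers 30 bases before and 30 bases from the annotated start of the first listed transcript, on the gene's strand. Capitals mark a run of at least 8 C or T bases that reaches into the 20 bases on either side of the start. A run may begin outside them, only the longest is marked (the first where several are equally long, as in Rps27l), and windows in lower case throughout hold none.
Rps6 (chr4:86857338-86857397, minus strand): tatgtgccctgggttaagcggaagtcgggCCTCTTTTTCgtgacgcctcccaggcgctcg
Rpl7a (chr2:26910777-26910836, plus strand): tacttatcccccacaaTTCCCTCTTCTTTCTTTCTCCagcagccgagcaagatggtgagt
Rplp2 (chr7:141447621-141447680, plus strand): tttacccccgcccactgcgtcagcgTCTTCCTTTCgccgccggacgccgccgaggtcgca
Rpl22l1 (chr3:28805478-28805537, plus strand): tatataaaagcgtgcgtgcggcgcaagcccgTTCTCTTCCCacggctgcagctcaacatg
Rps27l (chr9:66946056-66946115, plus strand): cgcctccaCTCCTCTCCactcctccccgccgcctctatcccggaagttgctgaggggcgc
Rpl12 (chr2:32961682-32961741, plus strand): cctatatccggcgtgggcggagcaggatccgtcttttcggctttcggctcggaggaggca
Rpl10 (chrX:74270786-74270845, plus strand): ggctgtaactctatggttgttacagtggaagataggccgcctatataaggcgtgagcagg
Rpl3l (chr17:24727796-24727855, plus strand): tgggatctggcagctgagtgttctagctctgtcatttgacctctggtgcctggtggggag
Such a run reached within 20 bases of the start in 29 of the 63 members (46.0%), against 20.8% of 27025 genes with a promoter. Some of these runs, as in Rps27l, end before the annotated start. In the wider window from 250 bases before to 50 bases after the start, CCGGAAG, the core letters bound by ETS factors, was present on either strand in 24 of 63 (38.1%), against 9.12% of all. AAGATGGC, the core of the YY1 motif, was present on either strand in 5 (7.94%) against 2.88%. TATAAA on the gene's strand was present in 6 (9.52%) against 8.88%. A match describes letters in the window, and annotated starts can lie a few bases from the start used in heart.

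All 84 members passed the filter on low counts, which kept 13440 genes. Their level in TPM, a read count per transcript length scaled to a fixed sum per library, had a median of 225 over members, against 7.26 over all tested genes, and 70 of 84 averaged above 100 TPM. Together they held 1.27% to 1.68% of the expected counts of a library and 3.28% to 4.12% of the summed TPM. The highest level was that of Rpl41, a very short basic protein of the large subunit, at 941 ± 43.3 TPM in control, 1007 ± 85.2 with sunitinib, 863 ± 87.7 with sorafenib and 929 ± 73.9 with erlotinib (SD, n = 3). Rps15, of the small subunit, followed at 722 ± 20.4 TPM in control and 652 ± 35.1 with sorafenib. Rplp1, an acidic protein of the stalk that recruits elongation factors, stood at 716 ± 49.7 and 607 ± 37.3. Rps9, of the small subunit, averaged 492 TPM over all libraries. Rplp0 and Rplp2, the stalk partners of Rplp1, averaged 444 and 231 TPM.

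The 5 lowest members by mean TPM were Rpl34 (2.90), Rps4y2 (4.68), Rps19bp1 (9.60), Rps15a (14.2) and Rpl7l1 (20.1). Rpl34 and Rps15a encode standard proteins of the large and the small subunit, and the upstream tables treat both in ways that bear on their level. Rps15a had a mean expected count of 1154 spread over an effective length of 5059 bases in the authors' transcript models, where the median member had 649. Rpl34 had a mean count of only 24.3, fractional in all 12 libraries, while its pseudogene Rpl34-ps1 had 31.6. Of the 84 members, 76 had whole expected counts in all 12 libraries. The 8 with fractional values, where reads were shared between genes, were Rpl34, Rpl5, Rps25, Rpl31, Rpl36al, Rpl35, Rpl18 and Rpl26. Reads from processed pseudogenes outside the gene table cannot be told apart from those of the members.

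**Figure D1:**
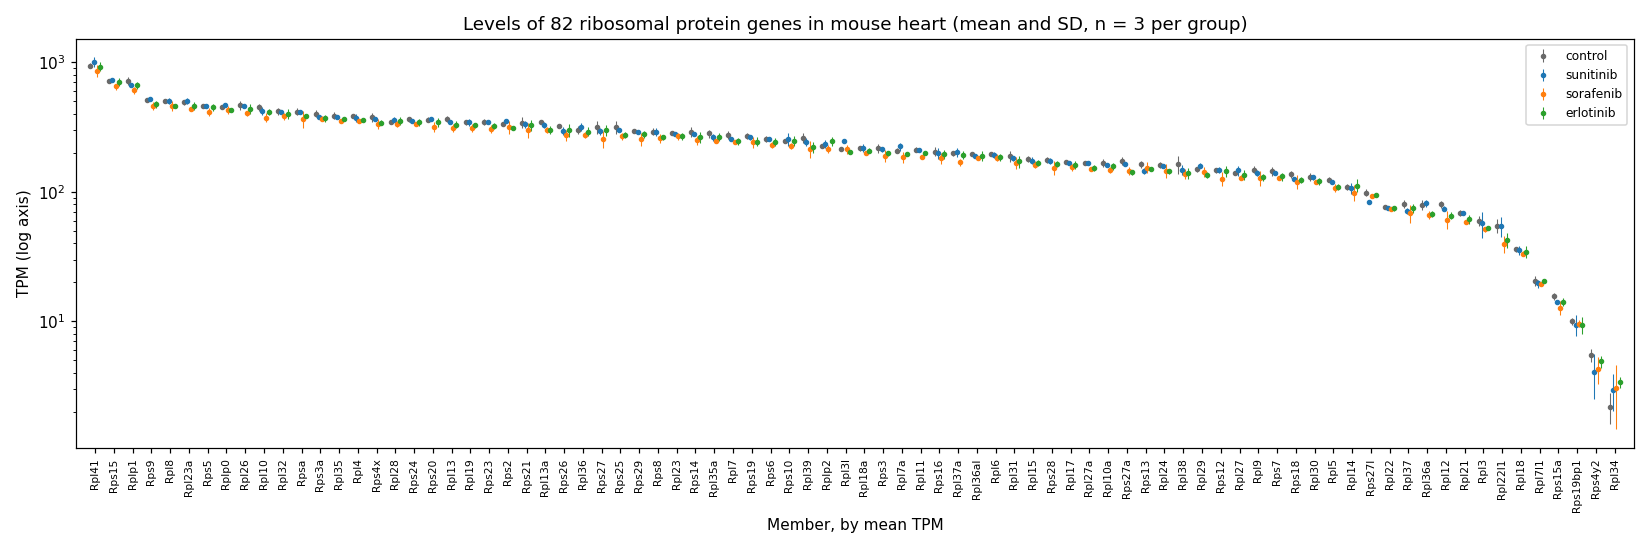
Mean TPM of 82 of the 84 members in the 4 groups, on a log axis, ordered by the mean over all libraries; points are means and bars are SD over 3 libraries. The range runs from 935 TPM for Rpl41 to 2.90 for Rpl34, and the group means of most members lie close together.

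The members varied together from library to library. A ribosomal score was taken per library as the mean, over members, of the deviation of log2 CPM (counts per M reads, scaled by TMM) from each member's own average. In the order of library number, Control_1365 to Erlotinib_1376, here and for the values that follow, the score was -0.025, 0.25 and -0.046 in control, -0.054, -0.011 and 0.12 with sunitinib, -0.053, -0.074 and -0.21 with sorafenib and 0.11, -0.12 and 0.13 with erlotinib. Control_1366 was the highest and Sorafenib_1373 the lowest, 1.38-fold apart, and the erlotinib group held libraries on both sides of 0. Control_1366 held the highest value of 66 of the 84 members, and Sorafenib_1373 the lowest value of 62. Sunitinib_1370, Erlotinib_1374 and Erlotinib_1376 had 79, 81 and 77 members above the member's own mean, while Erlotinib_1375 had 4. The SD of the score within groups was 0.124, and 30.4% of its variance lay between groups. With 4 groups of 3 libraries, a sizeable share lies between groups even without any treatment difference, and this share was not tested. In bulk tissue, fewer cells of a type and less RNA per cell cannot be told apart.

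The first principal axis of the members carried 71.1% of their variance. As a description over the 12 libraries, which share depth and scaling across genes, the median correlation (Pearson) of a member with the mean of the others was 0.926, and 73 of 84 exceeded 0.8. With group means removed the median was 0.935 and 77 exceeded 0.8. The 3 least alike were Rpl34 (-0.31), Rps19bp1 (0.29) and Rpl7l1 (0.31), at mean counts of 24.3, 117 and 766. The pair that are not ribosomal proteins thus stood apart from nearly all that are. The part of low counts in these correlations was not tested. Next came Rps4y2 (0.37), Rpl3 (0.41), Rpl3l (0.48) and Rps27l (0.59). Rpl3 is the only standard ribosomal protein among these besides Rpl34. The members also differed in how far they varied. Rpl22l1 varied by 2.19 log2 units for each unit of the others, Rps27 by 1.75 and Rpl39 by 1.61, against 0.70 for Rplp0. Across the 77 standard genes, which are not independent replicates, this slope had a Spearman correlation of -0.39 with effective length, so shorter transcripts tended to vary more.

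**Figure D2:**
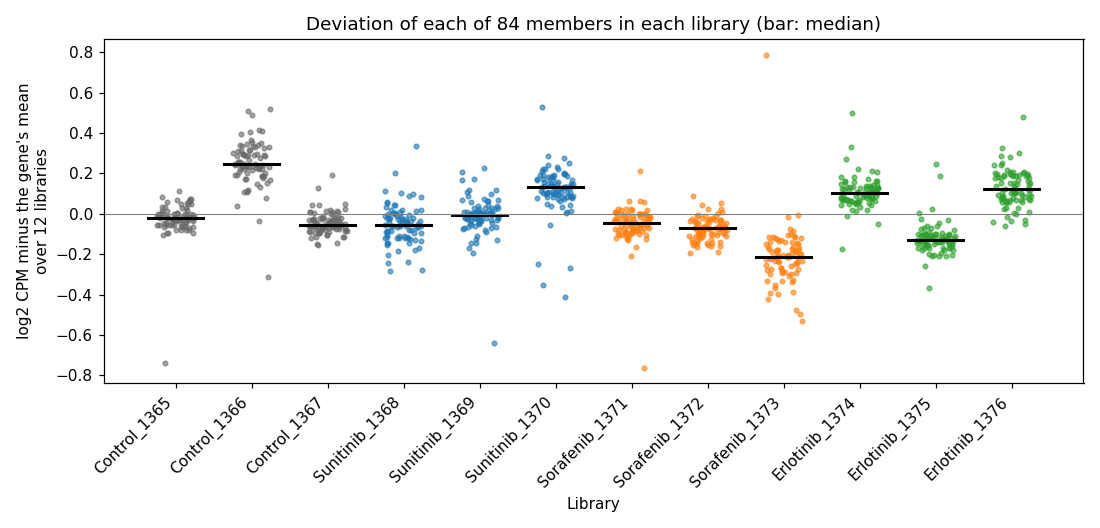
Deviation of each of the 84 members from its own mean over 12 libraries, in log2 CPM, by library; each point is 1 member and the bar is the median. Nearly the whole set sits above 0 in Control_1366 and below 0 in Sorafenib_1373, and the 3 erlotinib libraries fall on both sides of 0.

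Short transcripts in general leaned the same way in most libraries, by less. Of the members, 69 fell within the length limit of the shortest 10% of the other tested genes, 1089.9 bases. The 1336 other genes within that limit had a score of 0.10 in Control_1366 and -0.087 in Sorafenib_1373, where the ribosomal score was 0.25 and -0.21. In Sunitinib_1370 they were at -0.035 while the ribosomal score was 0.12, and in Control_1365 at 0.039 while it was -0.025. In Erlotinib_1375 they were at -0.0027, where the ribosomal score was -0.12. The part of transcript length or RNA quality in the ribosomal score was not tested. The median SD of a member within groups was 0.138 log2 units, above the 0.0990 of the 1177 other genes at or above the median member level and below the 0.152 of all tested genes.

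No member passed in any of the 7 tests, which were the 6 comparisons between groups and the test of any difference among the 4 (edgeR quasi-likelihood test, Benjamini-Hochberg adjusted p under 0.05 over 13440 genes). In the test of any difference, 5 of 84 members had an unadjusted p under 0.05 in edgeR 6 in DESeq2 and 5 in limma, with 0 passing in each, while 5.45% of all tested genes passed and 23.3% had such a p. The smallest edgeR adjusted p in that test was that of Rpl7a (adjusted p = 0.138), a protein of the large subunit. Its level was 163, 180.2 and 168 CPM in control, 179, 181 and 183 with sunitinib, 153, 160.2 and 138 with sorafenib and 174, 155 and 176 with erlotinib. The 3 sunitinib values lie above all sorafenib values and within 1 narrow band, while the control and sunitinib groups overlap.

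With sorafenib, ribosomal protein genes were lower than in control by a small amount in nearly every member, and none passed. The median log2 fold change over the 84 members was -0.17, a ratio of 0.887, where the median over all tested genes was -0.00069. It was -0.0016 over the 1177 other genes at or above the median member level and -0.054 over the shortest 10% of the others. In edgeR 0 of 84 members passed, against 0.00744% of all tested genes. DESeq2 and limma also called 0, with 17 and 26 members at an unadjusted p under 0.05. Of the members, 83 lay below 0 against 50.2% of all genes, 15 were lower at an unadjusted p under 0.05 against 5.54%, 0 were higher against 6.86%, and 25 had sorafenib values all below the control values against 7.7%. These counts are not of independent genes, since members share the swings between libraries. Without Control_1366 the median was -0.066 with 1 member at p under 0.05, and without Sorafenib_1373 it was -0.12 with 1, whereas without Control_1367 it was -0.22 with 34.

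Rpl12, a large subunit protein at the base of the stalk, had the smallest p. Its level was 44.2, 53.9 and 42.2 CPM in control, 40.8, 42.9 and 44.9 with sunitinib, 38.6, 38.3 and 29.4 with sorafenib and 43.5, 37.7 and 39.5 with erlotinib. All sorafenib values lay below all control values, with Sorafenib_1373 lowest of all. The log2 fold change was -0.40 ± 0.11 (95% interval -0.65 to -0.15, adjusted p = 0.194). Rpl10, which joins the large subunit last and is needed for subunits to pair, stood at 309, 379 and 314 CPM in control, 307, 299.6 and 319 with sunitinib, 288, 285 and 252 with sorafenib and 337, 288 and 347 with erlotinib. Its sorafenib values lay below all control values, at a log2 fold change of -0.28 ± 0.094 against control (adjusted p = 0.265). Rpl13, also of the large subunit, was at 224 ± 13.0 CPM against 267 ± 30.2 in control (SD, n = 3, log2 -0.25 ± 0.091). The lowest value was that of the paralog Rpl22l1, at -0.49 ± 0.20 (95% interval -0.94 to -0.040, adjusted p = 0.355). The low-count Rps4y2 was at -0.36 ± 0.24. The only member above 0 was the sparsely counted Rpl34 at 0.45 ± 0.37, whose sorafenib values ran from 0.881 to 2.58 CPM, and which was at -0.034 without Sorafenib_1373. Nearest 0 were Rpl3l at -0.032 ± 0.076, whose sign turned without Control_1366 or without Sorafenib_1373, and Rpl7l1 at -0.039 ± 0.073.

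Markers of other cell types moved beside this comparison, in which 50.2% of all tested genes lay below 0. All 19 macrophage and monocyte markers tested lay below 0 with sorafenib, their summed level being 356 to 456 CPM against 654 to 703 in control. Summed marker levels, here and below, are over all genes listed, per M counts without TMM. With sunitinib 16 of the 19 lay below 0 and with erlotinib 14, against 49.6% and 51.8% of all genes. Their median log2 fold change was -0.59 with sorafenib, -0.16 with sunitinib and -0.095 with erlotinib. The summed level of the 13 endothelial markers, 4 of them below 0, was 2433 to 2522 CPM against 1965 to 2068. Of the 14 fibroblast markers, 13 lay below 0, with summed levels of 3360.2 to 4334 CPM against 4179.6 to 5455. This was not particular to sorafenib, since all 14 lay below 0 with sunitinib and all 14 with erlotinib. Their median log2 fold change was -0.33 with sorafenib, -0.37 with sunitinib and -0.22 with erlotinib. Of 8 fat markers tested, 7 lay below 0 with sorafenib, and 5 with each of sunitinib and erlotinib. The 10 fat markers listed summed to 26.7 to 35.8 CPM with sorafenib against 41.9 to 55.0 in control. In sorafenib against control, 0 macrophage, endothelial, fibroblast or fat markers passed in edgeR, against 0.00744% of all genes. The part of these cell types in the ribosomal protein values was not tested. The 13 cardiomyocyte markers summed to 127779 to 138244 CPM over all libraries, as the labelled tissue would have, whereas the skeletal muscle myosin Myh2 was at 0 in every group. Atrial and conduction markers, which differed widely within the sunitinib, sorafenib and erlotinib groups, had a score of 0.53, 0.65 and 0.48 in control, 0.83, 1.07 and -0.96 with sunitinib, -1.07, 0.65 and -1.18 with sorafenib and 0.44, -0.36 and -1.08 with erlotinib. With that score as a covariate the ribosomal median for sorafenib against control was -0.19.

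**Figure D3:**
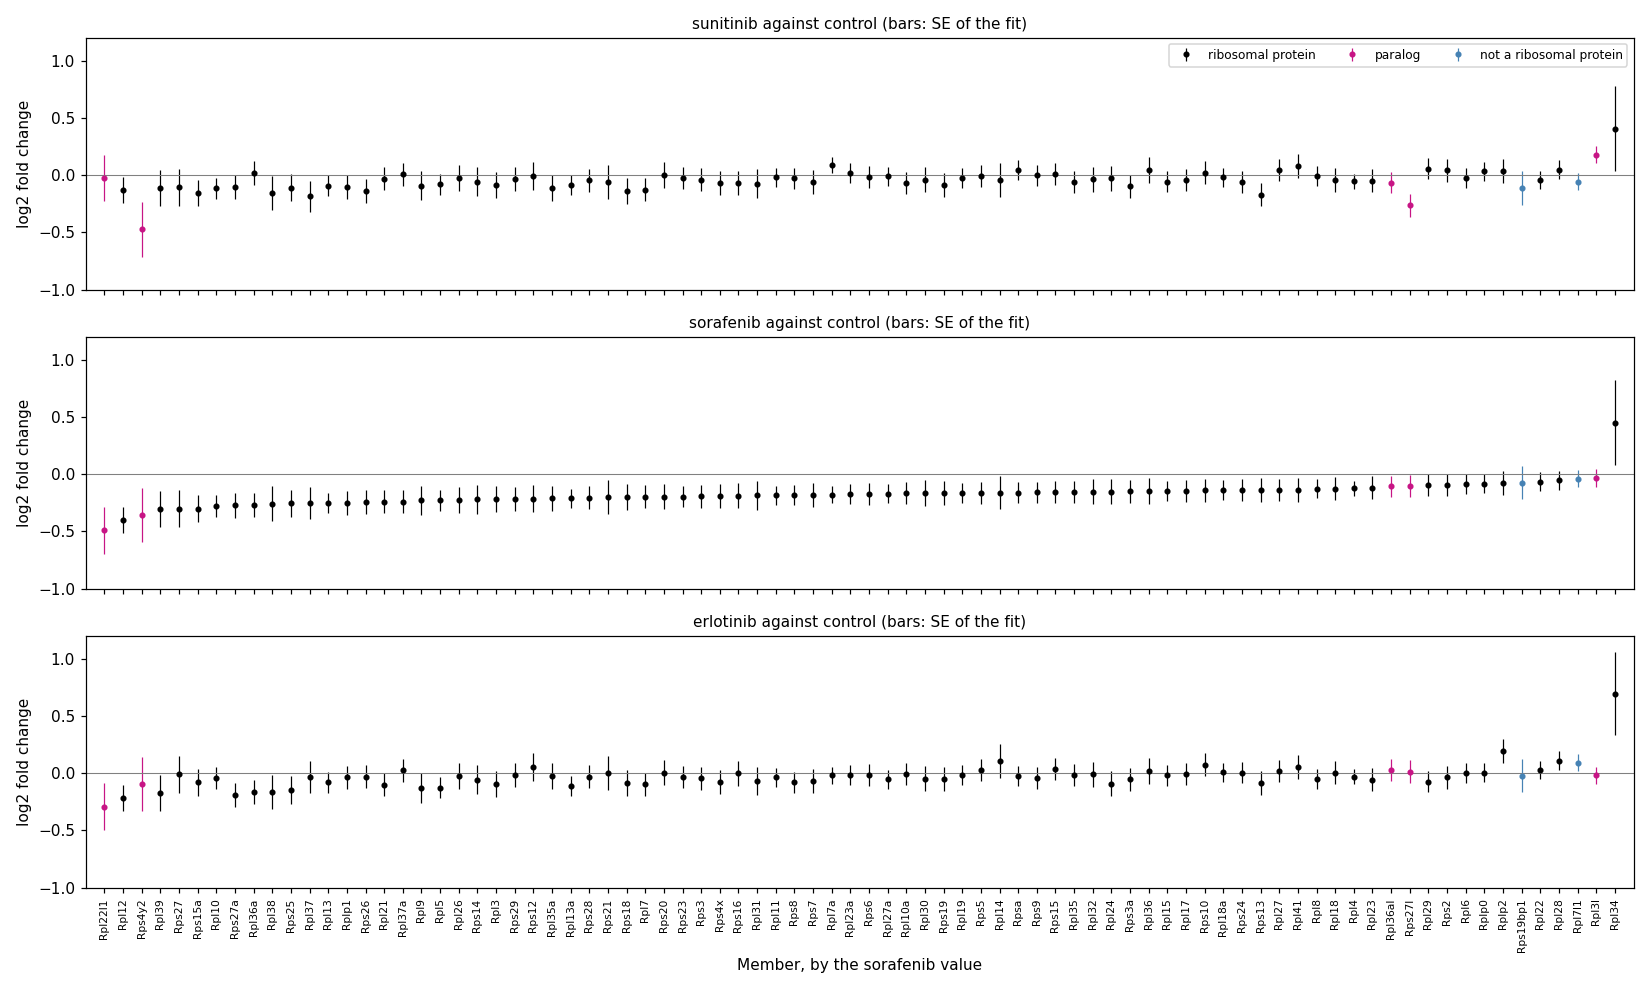
Log2 fold change of 82 of the 84 members against control for sunitinib, sorafenib and erlotinib, with the members in the order of the sorafenib value; points are the fitted values of edgeR and bars their SE, colours mark standard ribosomal proteins, paralogs and the pair that are not ribosomal proteins, and the 3 panels share the control libraries. For sorafenib 81 of the drawn members lie below 0, and the median of all 84 is -0.17, which is -0.066 without Control_1366, while the other panels centre near 0.

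With sunitinib, the ribosomal protein genes lay near the control level as a set. The median log2 fold change was -0.041 with 66 of 84 members below 0 against 49.6% of all genes, but without Control_1366 it was 0.060 with 16 below 0. In edgeR, DESeq2 and limma 0 members passed, against 0% of all genes in edgeR, and at an unadjusted p under 0.05 there were 2 in each of edgeR, DESeq2 and limma. In edgeR these were 1 in each direction, where the share of all genes was 4.78% lower and 6.09% higher. These 2 were both paralogs. Rps27l, a paralog of Rps27 known as a p53 target, was at 39.6, 45.6 and 34.6 CPM in control, 30.9, 32.7 and 36.1 with sunitinib, 37.1, 37.2 and 37.1 with sorafenib and 41.2, 36.8 and 43.0 with erlotinib. The sunitinib values reach from below all control values to within them, and the log2 fold change was -0.26 ± 0.10 (adjusted p = 0.358). Rpl3l was the other, and is described with Rpl3. The low-count Rps4y2 had the lowest value at -0.47 ± 0.24 (adjusted p = 0.514). Rpl37, of the large subunit, was at -0.18 ± 0.14, Rpl7a at 0.087 ± 0.072 and the sparsely counted Rpl34 at 0.41 ± 0.37.

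With erlotinib, the set was again near control, at a median of -0.028 with 60 of 84 below 0 against 51.8% of all genes. That median was 0.081 without Control_1366 and 0.040 without Erlotinib_1375. In edgeR 0 members passed against 0.29% of all genes, and 0 in DESeq2 and limma. At an unadjusted p under 0.05 there was 1 in edgeR, 1 in DESeq2 and 2 in limma. In edgeR it was higher with erlotinib, where 7.38% of all genes were higher at that p. Among the values farthest from 0 were Rplp2, of the stalk, at 0.19 ± 0.10, Rpl34 at 0.70 ± 0.37, the 1 member with all erlotinib values above control (10.2% of all genes), and Rpl22l1 at -0.29 ± 0.20. Rpl12 was at -0.22 ± 0.11 and Rps27a, a ubiquitin fusion of the small subunit, at -0.19 ± 0.11. The 3 comparisons with control use the same 3 control libraries, among them the 1 with the highest ribosomal score.

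Between the drugs, the sorafenib group was the lower in both of its comparisons, which share the sorafenib libraries with each other and with the comparison against control. Sunitinib against sorafenib gave a median of 0.13 with 78 members above 0 against 49.8% of all genes. In edgeR 0 members passed, where 0.0372% of all genes did, and DESeq2 and limma also called 0. At an unadjusted p under 0.05 there were 8 members in edgeR, all higher with sunitinib, 8 in DESeq2 and 12 in limma (4.86% of all genes were higher in edgeR). In 27 members all sunitinib values lay above all sorafenib values, against 6.99% of all genes. The median was 0.082 without Sorafenib_1373 and 0.081 without Sunitinib_1370. Rpl7a had the smallest p, at a log2 difference of 0.27 ± 0.072 (95% interval 0.11 to 0.42, adjusted p = 0.220).

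Sorafenib against erlotinib gave a median of -0.14 with all 84 members below 0 (82 with upper quartile scaling or the authors' scaled signal), against 49.9% of all genes. In spite of that, only 6 members were lower at an unadjusted p under 0.05 (8.11% of all genes) and only 3 had groups without overlap (11.3%). By its ribosomal score, Erlotinib_1375 lay among the sorafenib libraries. In edgeR and limma 0 passed, where 2.7% of all genes did in edgeR, with 9 and 4 members at an unadjusted p under 0.05 in DESeq2 and limma. DESeq2 called 1. Without Erlotinib_1375 the median was -0.22, with 37 members at an unadjusted p under 0.05, and without Erlotinib_1376 there were 0.

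Cell type markers moved beside these comparisons too. In sunitinib against sorafenib, 49.8% of all tested genes were above 0, 4.86% were higher at an unadjusted p under 0.05 in edgeR and 0.0372% passed. In sorafenib against erlotinib, 49.9% were below 0, 8.11% were lower at that p and 2.7% passed. Of 19 macrophage and monocyte markers, 18 were above 0 in sunitinib against sorafenib with 0 passing, and 17 were below 0 in sorafenib against erlotinib with 3 passing. Their summed level was 419.6 to 846 CPM with sunitinib, 356 to 456 with sorafenib and 572 to 876 with erlotinib. All 7 neutrophil markers tested were below 0 in sorafenib against erlotinib, each at an unadjusted p under 0.05 with 0 passing. The 10 neutrophil markers listed summed to 6.22 to 23.7 CPM with sorafenib and 16.6 to 82.1 with erlotinib. Of 13 endothelial markers, 11 were below 0 in sunitinib against sorafenib with 0 passing, at 1782 to 2067 and 2433 to 2522 CPM. All 8 fat markers tested were below 0 in sorafenib against erlotinib with 0 passing. All 3 erythroid markers tested were above 0 in sunitinib against sorafenib and below 0 in sorafenib against erlotinib. In each comparison 2 of the 3 had an unadjusted p under 0.05 in edgeR, with 0 passing. The 6 erythroid markers listed summed to 1000 to 1731 CPM with sunitinib, 781 to 1059 with sorafenib and 870 to 1622 with erlotinib. The part of these cell types in these ribosomal protein values was not tested.

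Sunitinib against erlotinib was the comparison with the most genes passing, 11.9% of all tested, and no ribosomal protein gene was among them. In edgeR and DESeq2 0 of the 84 passed, and 3 had an unadjusted p under 0.05 in each, where 28.1% of all genes did in edgeR. The median was -0.016 with 49 members below 0 against 48.7% of all genes, and its sign turned with upper quartile scaling (0.027), with the authors' scaled signal (0.038) and without any 1 of Erlotinib_1374, Erlotinib_1376, Sunitinib_1368 or Sunitinib_1369. The nearest to passing were Rps27l, at -0.28 ± 0.10 (adjusted p = 0.0850) with all sunitinib values below all erlotinib values, and Rpl3l, at 0.20 ± 0.076 (adjusted p = 0.112) with all sunitinib values above. Rps27l was the 1 member without overlap on the lower side (15.6% of all genes), and Rpl3l, Rpl36a and Rpl7a were the 3 on the higher side (18.1%). Rps27l passed when Control_1366 was left out of the fit, 1 other member when Erlotinib_1375 was, and Rpl3l in limma.

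The subunits varied alike. Scores of the 31 small subunit and 46 large subunit genes differed by at most 0.0628 log2 units in any library. For sorafenib against control their medians were -0.19 and -0.17, and for sunitinib against sorafenib 0.15 and 0.13. Rps6, the small subunit protein that S6 kinases phosphorylate, stood at 328, 401 and 332 CPM in control, 326, 339 and 383 with sunitinib, 327, 315 and 298 with sorafenib and 375, 309 and 366 with erlotinib. It was highest in Control_1366 and lowest in Sorafenib_1373, the order of the whole set, at a log2 fold change of -0.17 ± 0.10 with sorafenib (adjusted p = 0.500). Rpl5 and Rpl11, which with 5S rRNA bind Mdm2 when ribosome assembly is disturbed, were at -0.23 ± 0.092 and -0.18 ± 0.083 with sorafenib, -0.081 ± 0.091 and -0.018 ± 0.083 with sunitinib, and -0.13 ± 0.091 and -0.037 ± 0.083 with erlotinib. Rps19 and Rps14, small subunit genes affected in human anaemias of ribosome assembly, were at -0.17 ± 0.10 and -0.22 ± 0.13 with sorafenib. The stalk genes Rplp0, Rplp1 and Rplp2 were at -0.083 ± 0.083, -0.25 ± 0.10 and -0.075 ± 0.10. Rpl13a, which in human myeloid cells leaves the ribosome to repress translation, was at -0.21 ± 0.086, and Rpsa, of the small subunit and also known as a laminin receptor precursor, at -0.16 ± 0.088. None of these genes passed against control with any drug.

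Rpl3l exceeded Rpl3 in every heart. Both proteins occupy the same place in the large subunit, near its catalytic centre, and the start of Rpl3l printed above holds no pyrimidine run. Rpl3l was at 221, 211 and 217 TPM in control, 256, 236 and 249 with sunitinib, 220.0, 225 and 193 with sorafenib and 203, 211 and 197 with erlotinib. Rpl3 was at 53.8, 60.6 and 64.6 TPM in control, 63.2, 66.5 and 42.4 with sunitinib, 53.6, 51.4 and 49.2 with sorafenib and 52.5, 51.0 and 54.5 with erlotinib. Rpl3l thus made up 77.0% to 85.4% of the TPM of the pair, with a ratio of 5.86 in Sunitinib_1370 and of 3.35 to 4.38 elsewhere. In CPM, all 3 sunitinib values of Rpl3l (309, 304 and 355) lay above every other library, at a log2 fold change against control of 0.18 ± 0.076 (95% interval 0.014 to 0.34, adjusted p = 0.424). Rpl3 had -0.087 ± 0.11 in that comparison (95% interval -0.33 to 0.16), with Sunitinib_1370 the lowest of all libraries for Rpl3 and the highest for Rpl3l. In Sunitinib_1370 the summed cardiomyocyte markers were also the highest, by a score of 0.12, and the fibroblast score the lowest, at -0.77; their part in the ratio was not tested.

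**Figure D4:**
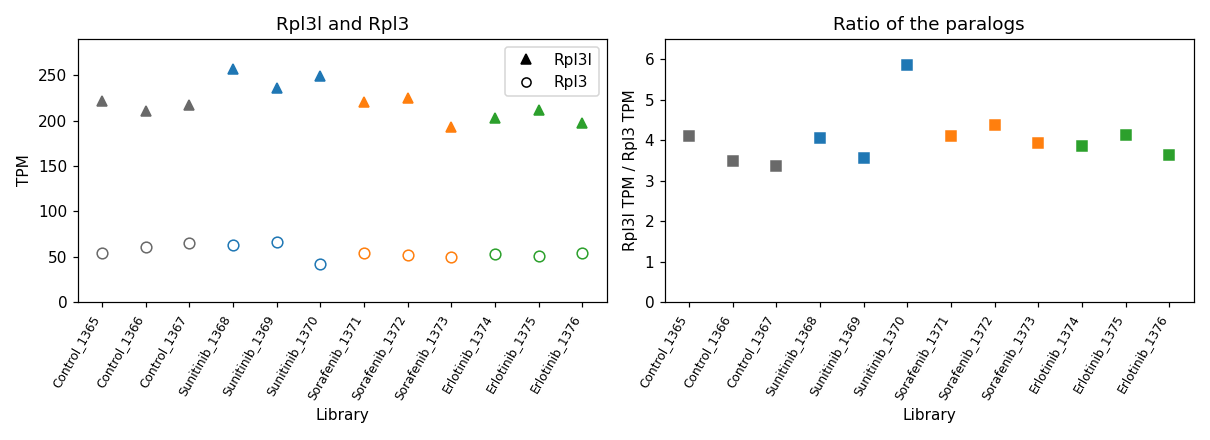
TPM of Rpl3l (filled triangles) and Rpl3 (open circles) in each of 12 libraries, left, and their ratio, right; colours mark the groups. Rpl3l is the higher in all libraries, and the ratio of 5.86 in Sunitinib_1370 stands above the rest.

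Among the other paralog pairs, the standard gene was the higher of Rpl22 and Rpl22l1, of Rps27 and Rps27l and of Rps4x and Rps4y2, whereas Rpl36al exceeded Rpl36a. In TPM, Rpl36al was 2.23 to 3.05 times Rpl36a, though reads of Rpl36al were partly shared with other genes. The ratio of Rpl22l1 to Rpl22 was 0.652, 0.816 and 0.672 in control, 0.574, 0.738 and 0.848 with sunitinib, 0.566, 0.575 and 0.458 with sorafenib and 0.622, 0.519 and 0.578 with erlotinib. It was lowest in Sorafenib_1373 and highest in Sunitinib_1370, and Rpl22l1 itself was at 20.3, 28.0 and 20.2 CPM in control, 16.5, 22.6 and 28.2 with sunitinib, 17.9, 17.2 and 13.5 with sorafenib and 21.0, 15.2 and 19.7 with erlotinib. Rps27l was at 0.263 to 0.422 times Rps27, highest in Sorafenib_1373, where Rps27 itself was lowest at 61.6 CPM. Rps4y2, which current RefSeq names Rps4l, was at 0.00821 to 0.0161 times Rps4x. The assembly factor Rpl7l1 was at 52.0, 48.3 and 48.5 CPM in control, 48.4, 44.1 and 50.8 with sunitinib, 49.2, 46.4 and 49.2 with sorafenib and 52.7, 49.6 and 56.4 with erlotinib. It was highest in Erlotinib_1376 and lowest in Sunitinib_1369.

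Related genes of translation were compared by lists. In edgeR the share of all tested genes that passed ran from 0% in sunitinib against control to 11.9% in sunitinib against erlotinib. Of 21 translation genes with TOP mRNAs outside the members, 0 passed in any comparison in edgeR. Their median for sorafenib against control was -0.067 with 15 below 0, a smaller size than that of the members, and their score was 0.080 in Control_1366 and -0.094 in Sorafenib_1373. Within the list Fau was at 96.6, 106 and 95.9 CPM in control, 96.2, 96.9 and 104 with sunitinib, 88.0, 91.8 and 81.2 with sorafenib and 103, 88.1 and 109.9 with erlotinib. It was high in Control_1366, Sunitinib_1370, Erlotinib_1374 and Erlotinib_1376, as the members were. Of 11 snoRNA host genes, whose spliced RNAs also begin with such a tract, 0 passed, and their score was 0.25 in Control_1366 and -0.27 in Sorafenib_1373 but -0.23 in Control_1365. Against control, 0 genes of these lists or of the 5 that follow passed with any drug. Of all tested genes, 0% passed with sunitinib, 0.00744% with sorafenib and 0.29% with erlotinib, so few passed at all. The medians of those 5 for sorafenib against control were 0.0070 for ribosome biogenesis factors, -0.0020 for other translation factors, -0.018 for mitochondrial ribosomal proteins, 0.057 for genes of mTORC1 and 0.13 for transcription factors.

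The related lists were also compared between sunitinib and erlotinib, where 11.9% of all genes passed. Of 62 ribosome biogenesis factors, 7 were lower with sunitinib and 0 higher in edgeR, at a median of -0.10. Gnl3, the nucleolar GTPase nucleostemin, was at 28.9, 26.0 and 27.8 CPM in control, 26.2, 25.8 and 23.4 with sunitinib, 29.3, 31.8 and 29.9 with sorafenib and 33.8, 33.7 and 35.0 with erlotinib. Every sunitinib value lay below every erlotinib value, at -0.44 ± 0.073 (adjusted p = 0.00453). Polr1e, a subunit of RNA polymerase I, was at -0.62 ± 0.11 and Nop58, a core protein of box C/D snoRNPs, at -0.40 ± 0.080 (adjusted p = 0.00536 and 0.00956). Of 75 mitochondrial ribosomal proteins, 4 were lower and 0 higher, Mrpl20 being at -0.41 ± 0.10. Among 34 other translation factors, 4 were lower, among them Eif5 at -0.39 ± 0.080 and Eif4a1 at -0.33 ± 0.071, and 1 was higher. That 1, named here after its value was seen, was Eef2k, the kinase that inhibits elongation factor 2, at 0.56 ± 0.15. In either direction 7 of 62, 4 of 75 and 5 of 34 passed, beside 11.9% of all genes. Of all 13440 tested genes, 742 were lower and 853 higher. Below 0 lay 50 of the 62, 61 of the 75 and 31 of the 34, against 48.7% of all genes. Whether any of these lists differs from other genes was not tested.

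Of 17 transcription factors linked to ribosomal protein genes, 3 passed in sunitinib against erlotinib, beside 11.9% of all genes. Myc, which drives ribosome production, was lower with sunitinib than with erlotinib and Sp1 and Mxi1, a Myc antagonist, were higher. Myc was at 5.79, 11.9 and 5.73 CPM in control, 5.53, 6.39 and 3.44 with sunitinib, 5.60, 5.39 and 3.19 with sorafenib and 11.1, 20.5 and 14.0 with erlotinib. All erlotinib values exceeded all sunitinib and sorafenib values, and Control_1366, the library with the highest ribosomal score, lay above 1 of them. Other libraries went the other way. Erlotinib_1375, the highest in Myc, had a ribosomal score of -0.12, and Sunitinib_1370, at 3.44 CPM, had 0.12. The part of Myc in the ribosomal score was not tested. The log2 difference of Myc was -1.56 ± 0.35 for sunitinib (adjusted p = 0.0189) and -1.68 ± 0.35 for sorafenib (adjusted p = 0.0364) against erlotinib. Sp1 was at 0.44 ± 0.081 and 0.34 ± 0.081 in the same comparisons (adjusted p = 0.00690 and 0.0440). Of 31 genes of mTORC1 and of the control of TOP mRNAs, 3 passed, all lower with sunitinib. Of all 13440 tested genes, 11.9% passed in either direction, and 742 were lower. The 3 genes were Rps6ka2, Lamtor3 and Ddit4, an inhibitor of mTORC1. Ddit4 was at 22.7, 216 and 77.8 CPM in control, 19.9, 18.8 and 58.6 with sunitinib, 38.6, 44.5 and 36.7 with sorafenib and 173, 236 and 306 with erlotinib, at -2.88 ± 0.78 (adjusted p = 0.0478). Its control values differed widely among themselves, with Control_1366 the highest of them. For sorafenib against erlotinib, 1 of the 34 translation factors passed, Eef1e1, at -0.45 ± 0.10 (adjusted p = 0.0405), beside 2.7% of all genes.

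**Figure D5:**
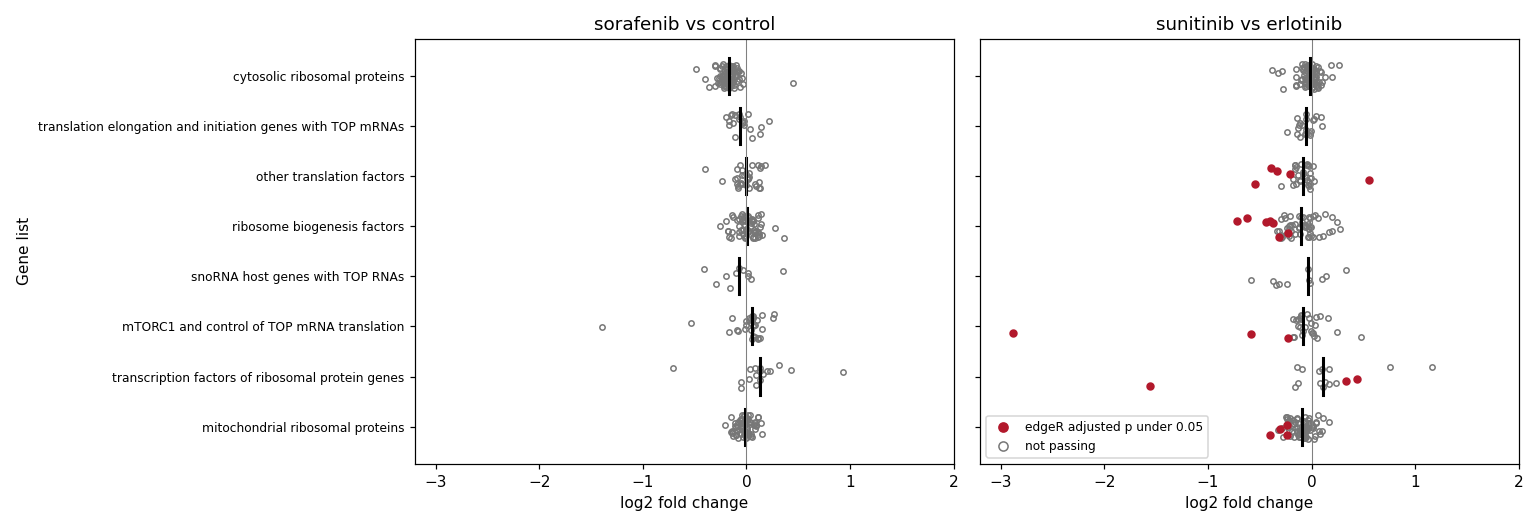
Log2 fold change of each gene of 8 lists for sorafenib against control, left, and sunitinib against erlotinib, right; filled points passed in edgeR at an adjusted p under 0.05, open points did not, and the bar is the list median. Sorafenib gives the ribosomal proteins a median of -0.17 with 0 passing, where 0.00744% of all tested genes passed. On the right 0 of 84 ribosomal proteins and 7 of 62 ribosome biogenesis factors passed, beside 11.9% of all tested genes.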

How the data were processed

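Mouse heart RNA was sequenced in 12 stranded poly(A)-selected libraries, per the labels' protocols. The authors' deposited tables hold RSEM expected counts, TPM and FPKM per gene with transcript lengths, and a scaled signal per gene. RSEM, Picard 1.88, SAMtools 1.2 and the mm9 build are named per the submitters' processing notes. Which aligner, gene annotation and version of RSEM were used is not given in the sources used here. FPKM, a deposited value per gene, was not used. The TPM of the deposited genes summed to 54.9% to 60.8% of its full scale in a library, so its level between libraries is relative.

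Expected counts, 14.3 M to 16.5 M in total per library, were rounded and fitted with edgeR 4.0.16 in R 4.3.3 (filterByExpr, TMM, robust quasi-likelihood fit over all 12 libraries, prior count 2 for CPM). The 13440 tested genes were adjusted together by Benjamini-Hochberg, at 0.05, in 6 pairwise comparisons and 1 test of any difference. The mean count of a member ranged from 24.3 to 9192. Intervals are 95%. DESeq2 1.42.0, limma 3.58.1 on the authors' scaled signal, other scalings and filters, and leaving out each library were alternatives. The pipeline was tested on simulated counts, in which genes varied independently and the changes were larger than those of the members. That test does not bear on small changes shared by many genes. Sequences came from RefSeq, on GRCm38.p6, whose coordinates are not those of mm9.

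The members and lists were chosen with earlier results of these data known. Genes are named by rule: the 3 largest rises, the 3 largest falls and the 3 smallest p for each drug against control, the 5 highest and 5 lowest levels, members next to the count minimum of 10, the 3 least like the rest, set members of known role, and up to 3 genes of smallest p in each related list. Genes named outside the rule were chosen after their values were seen. Markers gave cell type checks. A few genes entered every fit and count but are not reported here by name.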

Additional observations from a re-analysis of the deposited data

How the results depend on the processing

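No paired analysis was possible because the replicate numbers in the titles do not recur across groups. The number of members passing, 0 in all 7 tests in edgeR, was 1 in DESeq2 for sorafenib against erlotinib, 1 in limma on the scaled signal for sunitinib against erlotinib (Rpl3l), and 0 to 1 for sunitinib against erlotinib when libraries were left out, 1 without Control_1366 (Rps27l) and 1 without Erlotinib_1375. For sorafenib against control, Rpl3l ran from -0.075 to 0.023 on the log2 scale over left-out libraries, above 0 without Control_1366 (0.0075) or Sorafenib_1373, and Rpl34 ran from -0.034 (without Sorafenib_1373) to 0.75. The cause was not tested. Over all alternatives the median over members lay between -0.22 and -0.066 for sorafenib against control, between -0.10 and 0.060 for sunitinib against control, and between -0.081 and 0.081 for erlotinib against control, where upper quartile scaling gave -0.069 and the scaled signal -0.081. No scaling turned the sign of these 3 medians, and leaving out Control_1366 turned it for sunitinib and erlotinib, as leaving out Erlotinib_1375 did for erlotinib. Depth limits Rpl34, Rps4y2 and Rps19bp1, the members of lowest count.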
